A study of Mus musculus with 6 samples.

Results

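Trp53, the gene for the tumour suppressor p53, and 9 of its cell cycle arrest, feedback and stress targets were followed across mouse fallopian tube organoids with and without Trp53 loss. The 10 genes were taken by name, with earlier results of these data known: Trp53, Cdkn1a, Mdm2, Ccng1, Zmat3, Phlda3, Sesn1, Sesn2, Btg2 and Gtse1. Through their RefSeq transcripts they matched 13 probes of 56605 on the array, and 10 of the 23787 genes that could be named. Total RNA of 6 female organoid cultures was hybridised to 6 one-colour arrays, 1 for each group. The tumour-derived Pik3ca/Trp53 culture carried Pik3caH1047R with Trp53 loss and was grown from a subcutaneous tumour labelled adenocarcinoma. Its source, Pik3ca/Trp53, had the same alleles and was sampled before inoculation. The tumour-derived Apc/Trp53 culture carried Apc580D with Trp53 loss and came from a growth labelled cyst, and Apc/Trp53 was its source before inoculation. Trp53 loss was the culture with that alteration alone, before inoculation. The control was Trp53flox/flox organoids that received the empty vector pLKO.1. All were grown in medium with EGF, R-spondin1, Noggin, the ROCK inhibitor Y27632, Jagged-1 and the GSK3 inhibitor CHIR-99021, per the labels. How Trp53 was lost, and how many animals or clones stand behind a culture, is not given in the sources used here. The design names one more pair, which was not analysed here.

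The p53 protein is a transcription factor that DNA damage, oncogene activity and other stresses stabilise. It induces inhibitors of the cell cycle, above all p21 from Cdkn1a, and also its own antagonist MDM2, which ubiquitinates p53 and closes a feedback loop.

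The response element of p53 consists of adjacent copies of a degenerate decamer. These promoter stretches are shown because p53 acts on its targets through such elements, and because 2 adjacent decamers were found in the promoters of 3 of the genes below. RefSeq promoter windows (GRCm38.p6, 250 bases before to 50 after a start) were on hand for 9 of the 10 genes, 12 windows in all, and Zmat3 was not matched. The p53 decamer was searched on both strands. A pair was counted with at most 2 mismatches outside the conserved C and G, and each of the 3 pairs found overlapped a single decamer that was also counted. Such a pair lay in 3 of the 12 windows and in 107 of all 32851 windows (0.3257%). Capitals mark the pair.
Cdkn1a, chr17:29090908-29090967, plus strand, pair at -51 to -32 from the start: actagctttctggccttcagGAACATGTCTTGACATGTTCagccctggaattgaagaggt
Ccng1, chr11:40755442-40755501, minus strand, pair at -195 to -176 from the start: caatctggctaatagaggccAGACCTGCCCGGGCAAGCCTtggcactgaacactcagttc
Gtse1, chr15:85859945-85859964, plus strand, pair at -1 to 19 from the start: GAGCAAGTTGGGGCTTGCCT
A single decamer without mismatches lay in 6 of the 12 windows and in 2745 of all windows (8.3559%). Besides the 3 genes shown, these were Trp53, Mdm2 and the second start of Sesn1. No match was found in these windows for Btg2, Phlda3, Sesn2, the first starts of Sesn1 and Gtse1 or the second start of Cdkn1a, which says only that these letters are not there. A match describes the sequence and shows no binding.

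Levels below are log2 of the processed signal minus the 75th percentile of the same array, so a level of 0 lies at that percentile. Levels of different probes cannot be compared. Between 45.4% and 51.0% of probes were well above background, no probe was saturated on any array, and copies of a probe on 1 array had a median SD of 0.0394 to 0.0816 log2 units. That spread is technical. With 1 array in a group, a difference between 2 cultures has no replicate error and no test, and precision is limited by having so few arrays. All 6 arrays shared 1 slide and 1 scan. Both tumour-derived cultures lay in slide row 2 with control, and the other 3 cultures in row 1. Control and Trp53 loss lay in slide column 4, both Pik3ca/Trp53 cultures in column 2 and both Apc/Trp53 cultures in column 1. The 7 epithelial markers, among them Epcam and Krt8, were above background on every array. Of 5 markers of oviduct secretory cells, Pax8, Ovgp1, Krt7 and Msx1 were above background on every array, and Wt1 in Pik3ca/Trp53 and Trp53 loss alone. Of 10 fibroblast markers, 4 were above background in tumour-derived Pik3ca/Trp53 (Col1a1, Col1a2, Pdgfra and Vim), 1 in its source, 3 in tumour-derived Apc/Trp53, 0 in Apc/Trp53, 0 in Trp53 loss and 1 in control. Their summed linear level was 1.20 in tumour-derived Pik3ca/Trp53, 0.0619 in its source, 0.365 in tumour-derived Apc/Trp53 and 0.187 in control, and Col3a1, Dcn and Lum were above background on no array. Of 8 leukocyte markers 4 to 5 were above background, with Ptprc above it in tumour-derived Apc/Trp53 alone and summed levels of 7.52 to 20.7 in the Trp53-loss cultures, against 28.3 in control. Of 6 endothelial markers 2 to 4 were above it, with summed levels of 0.517 to 4.56 in the Trp53-loss cultures, against 1.17 in control. Of 7 markers of multiciliated cells 3 to 6 were above background in the Trp53-loss cultures, against 7 in control, and their summed linear level was 3.08 to 6.67 in the Trp53-loss cultures, against 14.3 in control. The part of these cells in the results below was not tested, and in these bulk cultures fewer cells of a type and less RNA per cell cannot be told apart.

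Trp53 itself was far lower than control in all 5 cultures labelled with its loss, but it was not equally low in them. Its 1 probe (transcript NM_011640) had a level of -1.05 in tumour-derived Pik3ca/Trp53, -4.49 in Pik3ca/Trp53, -6.12 in tumour-derived Apc/Trp53, -2.99 in Apc/Trp53 and -6.00 in Trp53 loss, against 1.46 in control. The signal was well above background in tumour-derived Pik3ca/Trp53, in Apc/Trp53 and in control, and not in the other 3. As processed intensity, the probe read 162, 13.3, 5.43, 42.6 and 4.91 in the same order of Trp53-loss cultures, against 841 in control. Trp53 was 5.67-fold lower in tumour-derived Pik3ca/Trp53 and 21.9-fold lower in Apc/Trp53 than in control. Where the probe was dim, only a bound can be given for its distance below control: at least 34.1-fold in Pik3ca/Trp53, 48.2-fold in tumour-derived Apc/Trp53 and 43.3-fold in Trp53 loss. Such a bound sets the brighter array against the lowest signal well above background on the array where the probe was dim. The cultures labelled Trp53 loss thus included 2 with a Trp53 signal that could be measured. The sources used here do not say where the probe lies relative to the altered exons of Trp53, so its signal does not show whether a functional transcript was left.

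Cdkn1a encodes p21, the inhibitor of cyclin-dependent kinases through which p53 stops the cell cycle. Both of its probes were lower than control on all 5 arrays. The probe for transcript NM_007669 had a level of 2.56 in tumour-derived Pik3ca/Trp53, 1.39 in Pik3ca/Trp53, 2.57 in tumour-derived Apc/Trp53, 1.97 in Apc/Trp53 and 0.72 in Trp53 loss, against 4.75 in control. That put it 4.58-fold, 10.3-fold, 4.54-fold, 6.89-fold and 16.4-fold below control, and Cdkn1a was still well above background in every culture. The probe annotated to the other transcript, NM_001111099, had a level of -3.29 in tumour-derived Pik3ca/Trp53, -5.88 in Pik3ca/Trp53, -5.83 in tumour-derived Apc/Trp53, -3.51 in Apc/Trp53 and -6.16 in Trp53 loss, against 1.30 in control. It was well above background on the same 3 arrays as Trp53. It was 24.1-fold lower in tumour-derived Pik3ca/Trp53 and 28.0-fold lower in Apc/Trp53 than in control. Its distance below control was at least 30.6-fold in Pik3ca/Trp53, 43.3-fold in tumour-derived Apc/Trp53 and 38.9-fold in Trp53 loss. On each array the probe for NM_001111099 was further below control than the probe for NM_007669. Gene values average both probes. The 2 probes' differences from control had an SD of 2.42 log2 units in Trp53 loss. Over the 5 cultures this SD ran from 1.43 in Apc/Trp53 to 3.50 in tumour-derived Apc/Trp53. Dim signals were taken as measured for it.

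**Figure D1:**
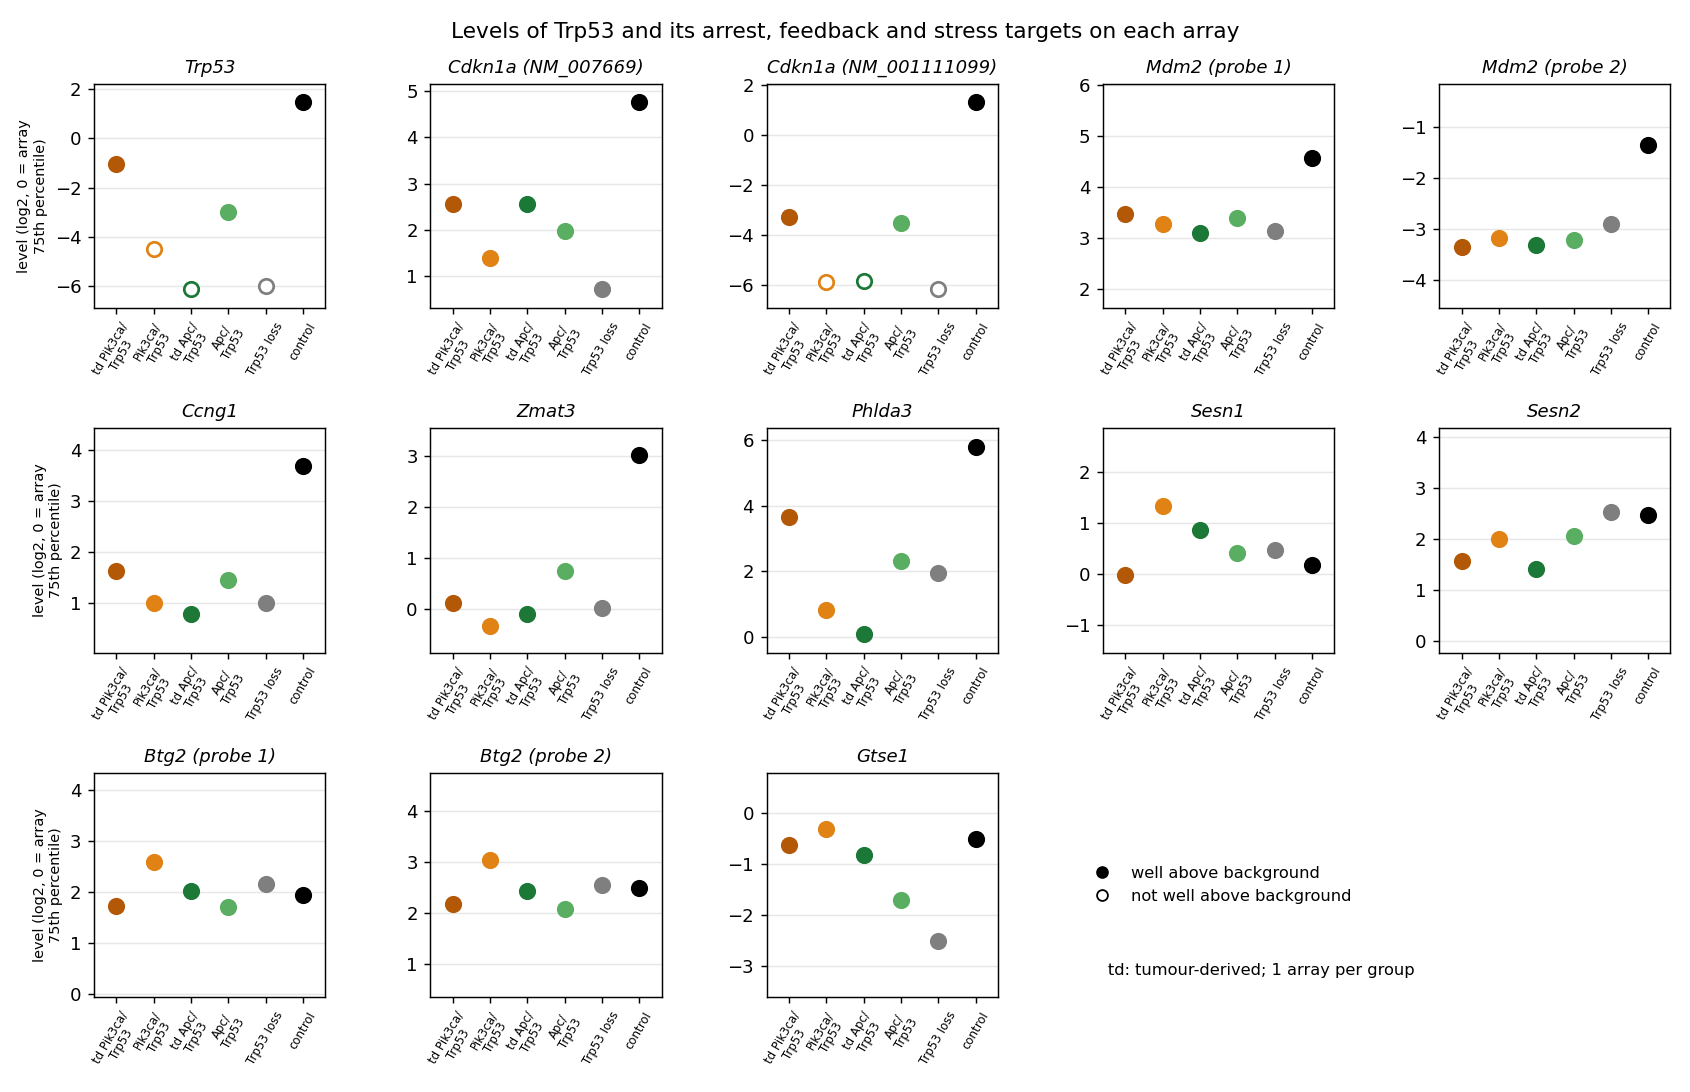
Level (log2 processed signal, 0 at the array's 75th percentile) of the 13 probes of Trp53 and its 9 targets on each of the 6 arrays, 1 point per array, with open points for signals not well above background; the axis differs by panel. Control is highest for both probes of Cdkn1a and of Mdm2 and for Trp53, Ccng1, Zmat3 and Phlda3, and lies among the other arrays for Sesn1, Sesn2, Btg2 and Gtse1.

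Mdm2, Ccng1, Zmat3 and Phlda3 were also below control on all 5 arrays. Mdm2 encodes the ubiquitin ligase of p53. Its brighter probe had a level of 3.46 in tumour-derived Pik3ca/Trp53, 3.27 in Pik3ca/Trp53, 3.09 in tumour-derived Apc/Trp53, 3.39 in Apc/Trp53 and 3.12 in Trp53 loss, against 4.55 in control. Its other probe had a level of -3.35 in tumour-derived Pik3ca/Trp53, -3.18 in Pik3ca/Trp53, -3.31 in tumour-derived Apc/Trp53, -3.21 in Apc/Trp53 and -2.91 in Trp53 loss, against -1.34 in control. The Trp53-loss arrays stood within 0.44 log2 units of each other on the dimmer probe and 0.37 on the brighter one, and control stood apart above them. Fold differences were 2.13 to 2.76 below control on the brighter probe and 2.96 to 4.03 on the dimmer one. Both probes are annotated to transcript NM_010786.

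Ccng1 encodes cyclin G1, which recruits the phosphatase PP2A to MDM2. Its level was 1.62 in tumour-derived Pik3ca/Trp53, 0.99 in Pik3ca/Trp53, 0.77 in tumour-derived Apc/Trp53, 1.44 in Apc/Trp53 and 0.99 in Trp53 loss, against 3.67 in control, or 4.16-fold to 7.47-fold below control. Zmat3 encodes a zinc finger protein that binds RNA. Its level was 0.13 in tumour-derived Pik3ca/Trp53, -0.33 in Pik3ca/Trp53, -0.08 in tumour-derived Apc/Trp53, 0.75 in Apc/Trp53 and 0.03 in Trp53 loss, against 3.03 in control. That was 4.89-fold below control in Apc/Trp53, where Zmat3 was highest of the 5, and 7.47-fold to 10.3-fold below it in the other 4 cultures.

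Phlda3, whose product competes with AKT for membrane lipids and so restrains AKT, spread over a wider range among the Trp53-loss cultures than the other targets did on probes above background on every array. Its level was 3.66 in tumour-derived Pik3ca/Trp53, 0.83 in Pik3ca/Trp53, 0.09 in tumour-derived Apc/Trp53, 2.32 in Apc/Trp53 and 1.94 in Trp53 loss, against 5.81 in control. It was 4.42-fold, 31.4-fold, 52.4-fold, 11.2-fold and 14.6-fold below control in these cultures, always well above background. Tumour-derived Pik3ca/Trp53 was the highest of the 5 and tumour-derived Apc/Trp53 the lowest, and none reached control.

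The remaining stress targets stood close to control on most arrays. Sesn1 and Sesn2 encode sestrins, which restrain mTORC1 signalling under stress. Sesn1 had a level of -0.02 in tumour-derived Pik3ca/Trp53, 1.33 in Pik3ca/Trp53, 0.87 in tumour-derived Apc/Trp53, 0.40 in Apc/Trp53 and 0.47 in Trp53 loss, against 0.18 in control. Sesn1 was 2.22-fold higher than control in Pik3ca/Trp53, and within 1.61-fold of control on the other arrays. Sesn2 had a level of 1.56 in tumour-derived Pik3ca/Trp53, 1.99 in Pik3ca/Trp53, 1.42 in tumour-derived Apc/Trp53, 2.06 in Apc/Trp53 and 2.53 in Trp53 loss, against 2.47 in control. It was 2.08-fold lower than control in tumour-derived Apc/Trp53 and within 1.88-fold of it elsewhere. Btg2 encodes an antiproliferative protein that acts through mRNA deadenylation. Its 2 probes ran together: levels of the first were 1.72 in tumour-derived Pik3ca/Trp53, 2.57 in Pik3ca/Trp53, 2.02 in tumour-derived Apc/Trp53, 1.70 in Apc/Trp53 and 2.15 in Trp53 loss, against 1.94 in control. Neither probe of Btg2 was more than 1.55-fold from control on any array.

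**Figure D2:**
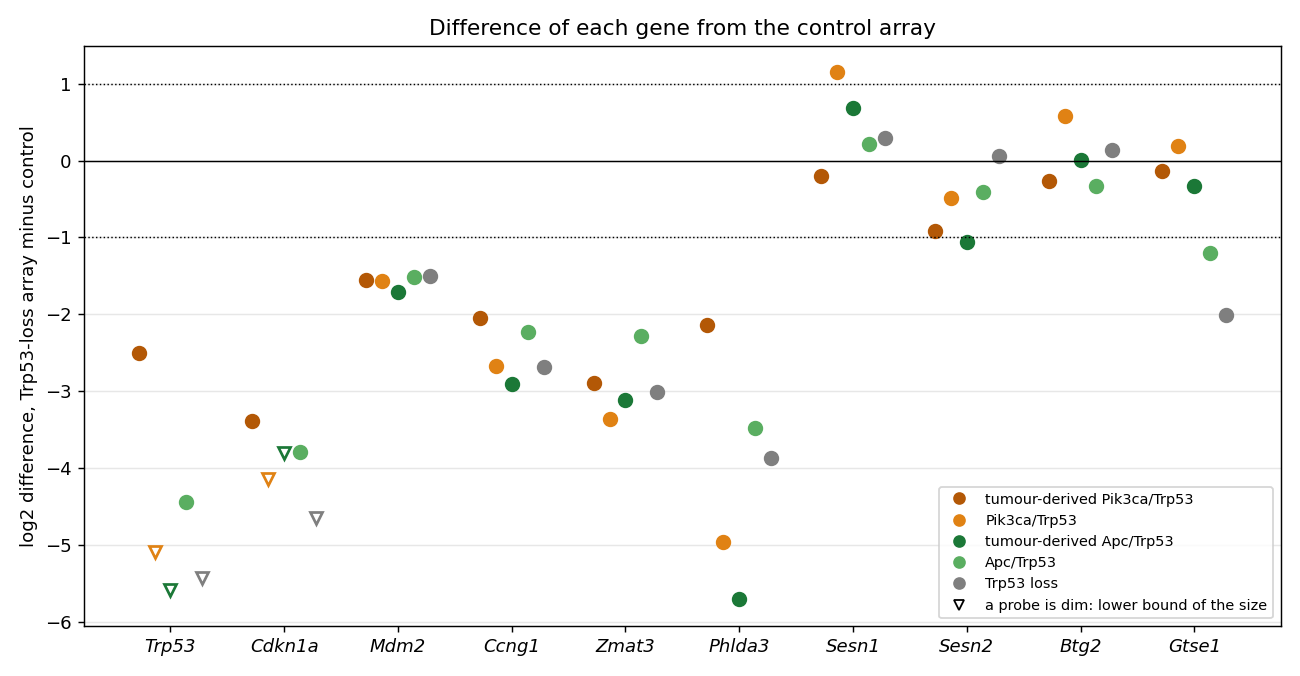
Log2 difference of each gene (mean over its probes) from the control array, 1 point per Trp53-loss array; triangles are lower bounds of the size because a probe was not well above background, and dotted lines mark a 2-fold difference. The first 6 genes lie below the lower dotted line on all 5 arrays, while Sesn1, Sesn2, Btg2 and Gtse1 lie on both sides of it or of 0.

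Gtse1 encodes a microtubule-binding protein of the G2 and M phases that in human cells restrains p53. Its level was -0.64 in tumour-derived Pik3ca/Trp53, -0.31 in Pik3ca/Trp53, -0.83 in tumour-derived Apc/Trp53, -1.70 in Apc/Trp53 and -2.52 in Trp53 loss, against -0.51 in control. Gtse1 was 2.30-fold below control in Apc/Trp53 and 4.03-fold below it in Trp53 loss, and within 1.25-fold of control on the other 3 arrays. A list of 25 other mitotic genes, such as Cdk1, Plk1 and Mki67, was set beside it. Of these, 24 were at least 2-fold higher than control in tumour-derived Pik3ca/Trp53, 25 in Pik3ca/Trp53, 24 in tumour-derived Apc/Trp53, 14 in Apc/Trp53 and 2 in Trp53 loss (Cenpa, 2.08-fold, and Plk1, 2.04-fold), and none was 2-fold lower in any of the 5. Over all genes, 15.3%, 10.9%, 14.7%, 8.25% and 6.17% were at least 2-fold higher in the same order, so the count in Trp53 loss is near the background. All 25 still lay above control in Trp53 loss, by 0.25 to 1.06 log2 units. Their median there was 0.67, against 0.07 over all genes. Gtse1 had a lower difference from control than each of the 25 in all 5 cultures. It lay 2.02, 2.15, 2.36, 2.27 and 2.68 log2 units below the list's median in the same order. With another background correction (normexp) it still lay below all 25, by 1.60 to 1.84 log2 units from their median. These 5 values share the control array. Between arrays other than control, Gtse1 lay on the same side of 0 as the list: in Pik3ca/Trp53 minus Trp53 loss its log2 difference was 2.21, against a median of 1.58 for the 25, and in Apc/Trp53 minus Trp53 loss 0.81 against 0.29.

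**Figure D3:**
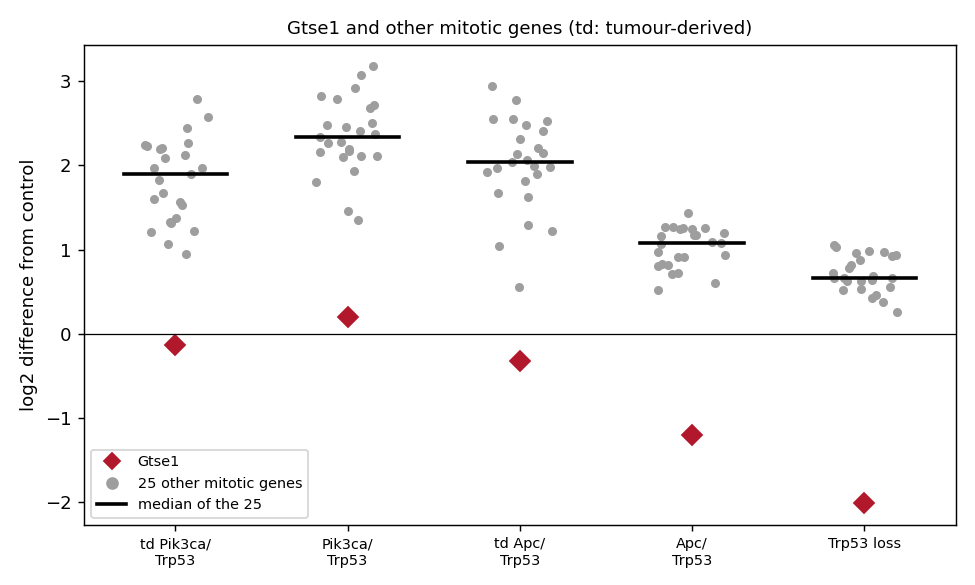
Log2 difference from control of Gtse1 (diamonds) and of 25 other mitotic genes (grey points, bars at their median) on each Trp53-loss array. Gtse1 lies below every grey point on all 5 arrays, all measured against the same control array.

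Counted over the 10 genes, 6 were at least 2-fold lower than control in tumour-derived Pik3ca/Trp53 (12.8% of all genes were), 6 in Pik3ca/Trp53 (11% of all genes), 7 in tumour-derived Apc/Trp53 (13%), 7 in Apc/Trp53 (9.49%) and 7 in Trp53 loss (7.16%). These counts use signals as measured. Sesn1 in Pik3ca/Trp53 was the single gene of the 10 at least 2-fold higher than control in any culture (10.9% of all genes there). The median log2 difference of the 10 was -1.80, -2.12, -2.31, -1.87 and -2.35 in these cultures, against medians of 0.02 to 0.08 over all genes. The same 6 genes, Trp53, Cdkn1a, Mdm2, Ccng1, Zmat3 and Phlda3, were at least 2-fold lower in all 5 cultures, as were 347 of 13911 genes (2.49%). On all 5 arrays below control without a size limit were again 6 of the 10, against 14.7% of all genes, and none of the 10 was above control on all 5, against 18.1% of all genes. The 5 comparisons share the control array, and the 10 genes were chosen with earlier results of these data known.

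The 3 cultures before inoculation that carried Trp53 loss were fitted against control with limma, which has 2 residual degrees of freedom here and takes the single control array to vary like the others. The spread among the 3 cultures also holds any effects of their further alleles. Ccng1 differed by -2.53 ± 0.307 (SE), Mdm2 by -1.52 ± 0.214, Zmat3 by -2.89 ± 0.507, Phlda3 by -4.11 ± 0.685, Cdkn1a by -4.94 ± 0.882 and Trp53 by -5.95 ± 1.28 log2 units. For Trp53 and Cdkn1a these values take dim signals as measured. With dim signals at the background limit the differences were -4.99 for Trp53 and -4.20 for Cdkn1a, and over all alternatives that of Trp53 lay between -6.70 and -3.20. Their limma adjusted p-values over 15025 genes were 0.182, 0.215, 0.294, 0.27, 0.304 and 0.393, so none of the 10 passed 0.05. The fit called 0 genes (0% of those tested), while 1262 genes and 6 of the 10 had an unadjusted p under 0.05, and the lowest adjusted p of any gene was 0.174. For Sesn1, Sesn2, Btg2 and Gtse1 the adjusted p was 0.794 to 0.943. These 3 cultures lay in slide row 1 and control in row 2, so row and Trp53 loss cannot be told apart in this fit. Within row 2, the same 6 genes were at least 2-fold lower than control in both tumour-derived cultures. A fit of all 5 Trp53-loss arrays with slide row as a block, chosen after seeing the data, gave -5.04 for Trp53 and -4.02 for Cdkn1a. Row 1 holds no control, so these values are the mean of the tumour-derived arrays minus control. Trp53 loss and tumour origin cannot be told apart in them.

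The question of the paired arrays is what differs between organoids grown from a subcutaneous tumour and their source. Trp53 and Phlda3 went in opposite directions in the 2 pairs, which was not tested. Of all genes, 51.1% had opposite signs in the 2 pairs. In tumour-derived Pik3ca/Trp53, 4 of the 10 genes were at least 2-fold apart from Pik3ca/Trp53 (25.1% of all genes were). The count includes Cdkn1a on a dim signal as measured. With dim signals at the background limit, its gene value was 1.69-fold higher than source. Trp53 was at least 6.01-fold higher and Phlda3 7.09-fold higher in the tumour-derived culture. Cdkn1a was 2.25-fold higher on the probe for NM_007669, and at least 1.27-fold higher on the probe for NM_001111099. Sesn1 was 2.55-fold lower. Mdm2, a direct target in the feedback loop, was within 1.14-fold of its source on both probes. Each of these genes except Sesn1 stayed at least 2-fold below control in the tumour-derived culture, as given above.

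In tumour-derived Apc/Trp53, 2 of the 10 genes were at least 2-fold apart from Apc/Trp53 (19.3% of all genes were), both lower: Trp53 by at least 2.21-fold and Phlda3 by 4.69-fold. The 2 probes of Cdkn1a went opposite ways there, 1.52-fold higher for NM_007669 and at least 1.55-fold lower for NM_001111099. Trp53, Ccng1, Zmat3 and Phlda3 were thus higher than source in the Pik3ca/Trp53 pair and lower than source in the Apc/Trp53 pair, and Sesn1, Btg2 and Gtse1 the reverse, which was not tested. With dim signals at the background limit, 9 of the 10 had opposite signs in the 2 pairs, as had 51.1% of all genes. The 9 include Mdm2, at 0.01 in the Pik3ca/Trp53 pair, and Cdkn1a, at -0.01 in the Apc/Trp53 pair. The signs of these 2 values are not settled. Fitted together with genotype as a block, which leaves 1 residual degree of freedom, limma called 0 of 15679 genes (0%) and 0 of the 10. In that fit 497 genes had an unadjusted p under 0.05, none of them among the 10, and the lowest limma adjusted p over all genes was 0.984. In both pairs the tumour-derived array lay in slide row 2 and its source in row 1, so row and origin cannot be told apart.

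**Figure D4:**
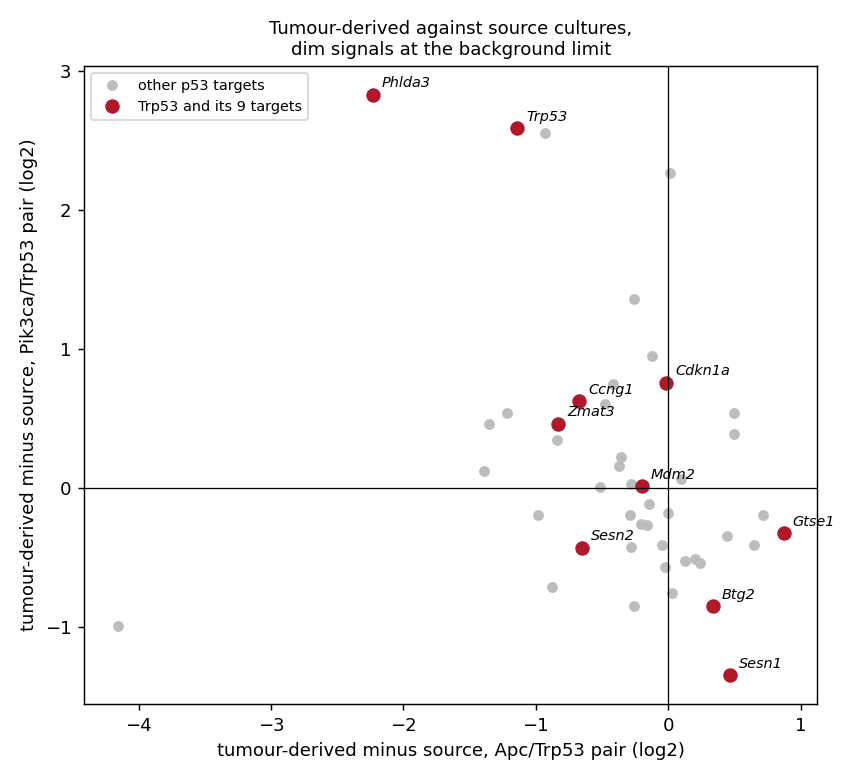
Log2 difference of tumour-derived minus source culture in the Pik3ca/Trp53 pair (vertical) and in the Apc/Trp53 pair (horizontal), for Trp53 and its 9 targets (red) and for other p53 targets measured in both pairs (grey), with dim signals at the background limit. Phlda3 and Trp53 lie at the upper left, higher than source in the first pair and lower in the second.

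Both double mutants before inoculation lay in slide row 1 with Trp53 loss, but each in another slide column. Column and the added allele cannot be told apart. In Pik3ca/Trp53, 2 of 9 measured genes were at least 2-fold apart from Trp53 loss (17.7% of all genes were): Phlda3 was 2.15-fold lower and Gtse1 4.62-fold higher. Trp53 was not well above background on either of these arrays. In Apc/Trp53, 2 of 10 were at least 2-fold apart from Trp53 loss (10.7% of all genes). Cdkn1a was 2.37-fold higher on the probe for NM_007669, and Trp53 at least 1.98-fold higher. The count of 2 rests on measured dim signals, and with these raised to the background limit it was 0.

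Other p53 targets, on a list also chosen with earlier results of these data known, shared the lower levels in part. Of 40 listed targets of the apoptosis, repair and metabolic arms, 14 of 39 measured were at least 2-fold lower than control in tumour-derived Pik3ca/Trp53, 16 of 38 in Pik3ca/Trp53, 20 of 38 in tumour-derived Apc/Trp53, 13 of 38 in Apc/Trp53 and 16 of 38 in Trp53 loss, against 12.8%, 11%, 13%, 9.49% and 7.16% of all genes. At least 2-fold higher were 4 (15.3% of all genes), 0 (10.9%), 0 (14.7%), 1 (8.25%) and 1 (6.17%), in the same order. Their median log2 difference was -0.79, -0.84, -1.01, -0.67 and -0.78. In Trp53 loss, Psrc1, a microtubule-binding protein gene, was 16.5-fold lower than control, Ak1, an adenylate kinase gene, 5.0-fold, and Trp53inp1, whose product promotes p53 phosphorylation and autophagy, 3.83-fold. Gdf15, a stress cytokine gene, was 3.78-fold lower, Ephx1, the microsomal epoxide hydrolase gene, 2.85-fold, Ddit4l, an mTORC1 inhibitor gene, at least 14.9-fold, and Eda2r, the ectodysplasin receptor gene, at least 6.82-fold lower. Gls2, the glutaminase gene, was 3.16-fold higher in Trp53 loss than in control.

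The same targets were compared between tumour-derived and source cultures. In tumour-derived Pik3ca/Trp53, 5 of 38 were at least 2-fold higher than source (14.5% of all genes were) and 0 lower (10.6%). In tumour-derived Apc/Trp53, 0 of 37 were higher (11.1%) and 5 lower (8.23%). The counts of 5 lie near the shares over all genes, and the difference between the pairs was not tested. The genes named next were chosen after their values were seen. The death receptor gene Fas had a level of 1.24 in tumour-derived Pik3ca/Trp53, against -1.31 in its source. The BH3-only gene Bbc3, which encodes PUMA, had a level of 2.70 in tumour-derived Pik3ca/Trp53, against 0.44 in its source. For both, tumour-derived Pik3ca/Trp53 also lay above control, at -1.14 for Fas and 1.45 for Bbc3. Gdf15 had a level of 1.77 in tumour-derived Apc/Trp53, against 5.93 in Apc/Trp53, and it was also low in Pik3ca/Trp53 and its tumour-derived culture (2.73 and 1.74), against 7.27 in control.

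**Figure D5:**
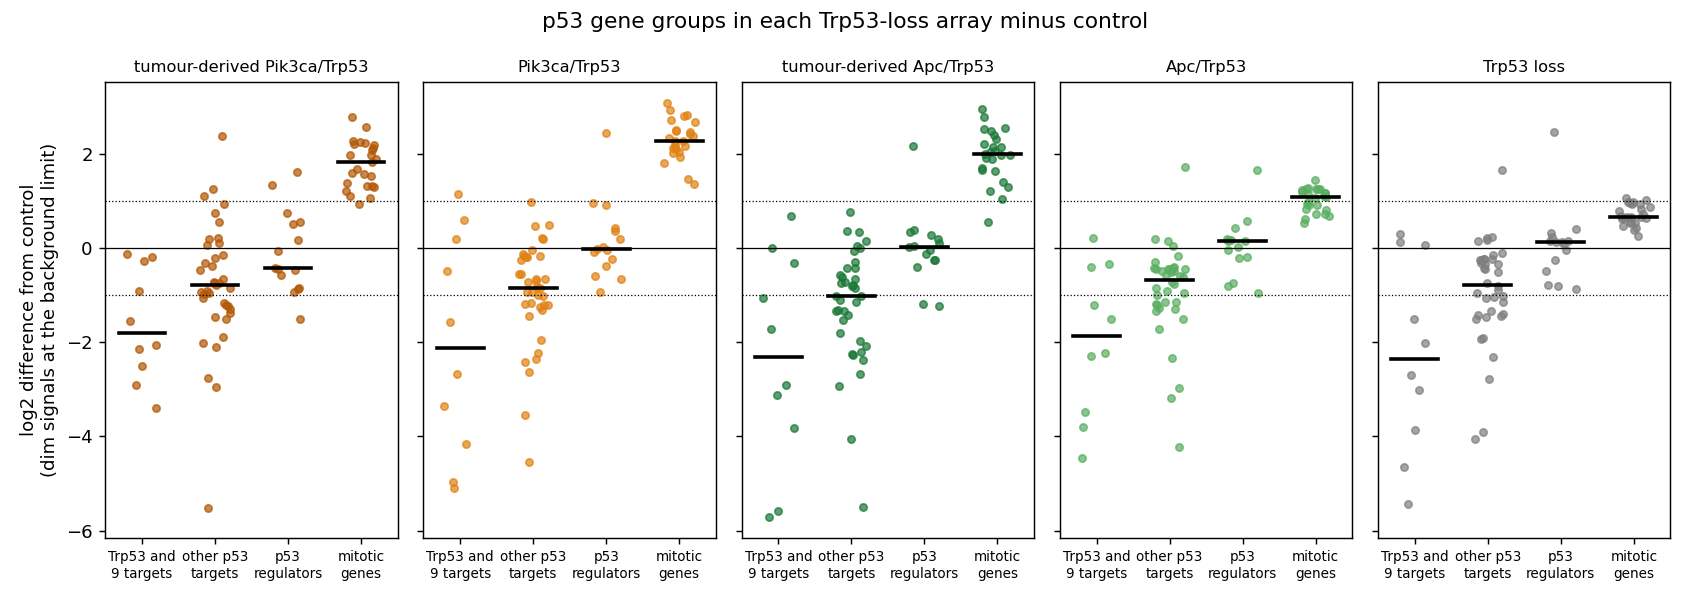
Log2 difference from control on each Trp53-loss array for Trp53 and its 9 targets, other p53 targets, p53 regulators and 25 other mitotic genes, 1 point per gene, bars at the median, dim signals at the background limit and dotted lines at 2-fold. The first group's median lies lowest and the mitotic genes' highest on each array, and the high point among the regulators in Trp53 loss is Cdkn2a.

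Of 15 regulators of p53, 2 were at least 2-fold higher than control and 3 lower in tumour-derived Pik3ca/Trp53, 1 higher and 0 lower in Pik3ca/Trp53, 1 and 2 in tumour-derived Apc/Trp53, 1 and 0 in Apc/Trp53, and 1 and 0 in Trp53 loss. Over all genes, 15.3%, 10.9%, 14.7%, 8.25% and 6.17% were higher and 12.8%, 11%, 13%, 9.49% and 7.16% lower in these cultures, so the regulators as a group lay near the background. Cdkn2a, which encodes p16INK4A and the MDM2 inhibitor p19ARF, had a level of 3.59 in tumour-derived Pik3ca/Trp53, 4.40 in Pik3ca/Trp53, 4.14 in tumour-derived Apc/Trp53, 3.62 in Apc/Trp53 and 4.43 in Trp53 loss, against 1.97 in control. It was 5.51-fold higher in Trp53 loss than in control, and all 5 Trp53-loss arrays lay above control. Among 5 other inhibitor genes of the CIP/KIP and INK4 families, Cdkn2c was the single one at least 2-fold from control in Trp53 loss, 2.54-fold higher. At least 2-fold higher were 3 of the 5 in tumour-derived Pik3ca/Trp53, 2 in Pik3ca/Trp53, 2 in tumour-derived Apc/Trp53 and 1 in Apc/Trp53. In each of these cultures 1 of the 5 was at least 2-fold lower, and the shares over all genes are those given above.

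The 10 genes followed here were left out of the ranking of patterns given next. Among 3078 genes that ranged over at least 2 log2 units, the pattern most like Trp53 over the 6 arrays was that of A930001C03Rik (Pearson r of 0.988), Tmprss11b (0.979), Slc4a11 (0.969), Defb14 (0.965) and Mgmt (0.962). Most like Cdkn1a were Odf3b (0.972), Pde6h (0.967), Gask1b (0.965), Tmprss11b (0.963) and Tmem43 (0.958). Dim signals were raised to the background limit of their array here. Tmprss11b and Odf3b stood at that limit in Trp53 loss, Pik3ca/Trp53 and tumour-derived Apc/Trp53, where Trp53 and a probe of Cdkn1a were dim too. Pde6h and Mgmt stood at it on part of these arrays. Part of such likeness, also with arrays left out, thus comes from values set at the limit. All 10 r values were lower when control and another array were left out together. Without control and tumour-derived Pik3ca/Trp53, the arrays farthest from the median of Trp53, r with Trp53 was 0.609 to 0.834. Without control and Trp53 loss, r with Cdkn1a was 0.379 to 0.685. Among the genes left out of the ranking, r with Cdkn1a over the 6 arrays ran from -0.445 for Sesn1 to 0.969 for Ccng1. Their r with Trp53 ran from -0.653 for Sesn1 to 0.957 for Ccng1. All of these are descriptions of 6 arrays that share a slide.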

How the data were processed

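Total RNA of 6 organoid cultures was labelled with Cy3 and hybridised to Agilent arrays, per the labels' protocols. Each deposited scanner file gives, for every spot, an intensity from which background was subtracted. Per the submitters' processing notes the tool was Agilent Feature Extraction 11.0.1.1, and the arrays were not scaled to each other. A table of log2 values deposited by the authors covers 2047 probes, and its differences matched those of the scanner intensities up to a constant. How it was centred and its probes chosen is unknown. Its medians ran -0.0472 (tumour-derived Pik3ca/Trp53), 0.151 (its source), -0.198 (tumour-derived Apc/Trp53), -0.322 (its source), -0.0153 (Trp53 loss) and 0.0258 (control). It holds 5 of the 13 probes described here.

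Control and outlier spots were left out and copies of a probe averaged. Log2 intensity was centred on each array's 75th percentile, and 34566 of 56605 probes were named through RefSeq accessions (GRCm38.p6). Gene values average the probes well above background on either array compared. A 2-fold difference was counted where arrays were compared singly. Fits used limma 3.58.1 in R 4.3.3 with Benjamini-Hochberg adjustment over all genes, and were tested on simulated data. The simulated arrays had equal spread and no effects of genotype or slide row, so that test does not cover these limits. The p-values measure the spread between single cultures, which also differ in genotype. In the fit against control this spread thus also holds any effects of the further alleles. In the paired fit it is the difference between the changes of the 2 pairs. Pairing of tumour-derived cultures with their source comes from the labels' genotypes. Alternatives were median scaling, quantile normalization, normexp (offset 50, on median signals, since the planned mean-signal column is not in the files), dim signals raised or dropped, the brightest probe and arrays left out. Genes of other lists are named where at least 2-fold apart between Trp53 loss and control: the 6 largest measured and the 4 largest bounds of each list. The members and lists were chosen with earlier results of these data known.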

Additional observations from a re-analysis of the deposited data

Results flagged for a closer look

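Between the 2 pairs, 9 of the 10 genes had tumour-derived minus source differences of opposite sign, as had 51.1% of all genes, and the difference of the 2 differences (Pik3ca/Trp53 pair less Apc/Trp53 pair, log2 units, dim signals at the background limit) is given here. It was 5.06 for Phlda3 (2.83 in the Pik3ca/Trp53 pair and -2.23 in the Apc/Trp53 pair) and 3.73 for Trp53 (2.59 and -1.14). It was 1.30 for Ccng1, 1.29 for Zmat3, 0.77 for Cdkn1a and 0.21 for Mdm2. It was -1.82 for Sesn1, -1.20 for Gtse1 and -1.19 for Btg2. Each pair is 1 array against 1 array, and none of these differences was tested. For Mdm2 and Cdkn1a the smaller of the 2 differences, 0.01 in the Pik3ca/Trp53 pair for Mdm2 and -0.01 in the Apc/Trp53 pair for Cdkn1a, lies within the spread of probe copies on an array.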

How the results depend on the processing

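The 5 counts of genes at least 2-fold lower than control were 5 to 7 under all 6 alternatives, against 6 or 7. Other counts were less stable. With normexp, genes at least 2-fold apart were 1 in Pik3ca/Trp53 minus Trp53 loss, 0 in Apc/Trp53 minus Trp53 loss and 1 in tumour-derived Apc/Trp53 minus Apc/Trp53, against 2 each. Apc/Trp53 minus Trp53 loss had 0 with dim signals raised. With probes above background on all 6 arrays, which leaves out Trp53, it had 1, as had tumour-derived Apc/Trp53 minus Apc/Trp53. Median scaling gave 4 in that pair. For tumour-derived Pik3ca/Trp53 minus Pik3ca/Trp53 the count was 3 to 4 over the alternatives, against 4. Over all genes, limma called 76 with quantile normalization and 66 with all 5 Trp53-loss arrays against control, in place of 0, and the cause was not tested. Against that 66, 0 were called with slide row as a block and 0 without tumour-derived Pik3ca/Trp53, both chosen after seeing the data. None of the 10 genes was called in any alternative, including those that left out 1 array, where 0 genes were called. The lowest limma adjusted p of any of the 10 was 0.0933, for Zmat3. With no replicate block by genotype, the paired fit called 0 genes and 0 of the 10. Median scaling moved the median of all genes to 0.13 in tumour-derived Pik3ca/Trp53, 0.28 in Pik3ca/Trp53, -0.06 in tumour-derived Apc/Trp53, 0.32 in Apc/Trp53 and 0.23 in Trp53 loss, each minus control, and to -0.37 in tumour-derived Apc/Trp53 minus Apc/Trp53. Of 2-fold differences over all genes, 36.1% were then lower in Pik3ca/Trp53 minus control (50.1% with the 75th percentile), 38.2% in Apc/Trp53 minus control (53.5%), 43.1% in Trp53 loss minus control (53.7%) and 62.5% in tumour-derived Apc/Trp53 minus Apc/Trp53 (42.7%). Of the other values, 524 stayed within the spread of probe copies and 210 moved beyond it, with no called direction reversed.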
